A study of Mus musculus with 27 samples.

Results

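Interferon-stimulated genes are the genes that cells switch on when interferons bind their receptors. A list of 42 of them, chosen by name for that known induction, was followed across 27 mouse prostate tumours. A row of the deposited table was taken for a gene where its only gene symbol in the platform's annotation was that name, and the row with the highest mean was used where there were several. In this way 38 of the 42 were measured, among 22180 genes in all. Oas1a shares its row with Oas1g, Dtx3l with Parp9 and Gbp2 with Gbp2b, and no row was named Ifi44, so these 4 are not analysed here. The members and the gene lists were chosen with results of these data known.

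All 27 tumours fall into 1 group: they are prostate tumours of Tg+ F2 males, bred by crossing C57BL/6-Tg(TRAMP)8247Ng/J with PWK/PhJ mice, and each carries the number of another animal. Growth and metastases had been quantified at 30 weeks, or at a humane endpoint instead, so ages need not be equal. TRAMP mice carry the SV40 early region behind the probasin promoter, which drives it in prostate epithelium, so every tumour shares the transgene, and alleles of both strains segregate among the animals. RNA of each snap-frozen tumour was read on 1 array, and the label's number, such as P471, stands for the tumour here. The labels hold no treatment and no control, so the values show how tumours of 1 kind differ from each other, with no replicate of any single tumour. Values are the authors' log2 expression levels, on which a difference of 1 is a doubling. The array medians lay between 5.67 and 5.82 log2 and the correlation between pairs of arrays between 0.89 and 0.99. The median of all rows was 5.79 log2, and levels under it are low for this table. Levels of different genes are not compared, because each probe set binds its own target with its own strength. Probe sequences may also differ between C57BL/6 and PWK/PhJ alleles, which could shift the level of a gene between tumours. This was not tested.

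In the pathway's usual order, viral RNA or misplaced DNA is read by sensors such as RIG-I (gene Ddx58) and MDA5 (Ifih1), and these lead to the making of type I interferon. Interferon then acts through its receptor and the JAK kinases on a complex with STAT2 and IRF9, which binds a promoter element called the interferon-stimulated response element, or ISRE. Interferon gamma, which T cells and NK cells secrete, acts on another element, the gamma-activated site or GAS. The genes switched on include antiviral enzymes, more sensors, the ubiquitin-like protein ISG15 and its partners, GTPases of cell-autonomous defence, and IRF7, which raises interferon production further. In tumours such genes can be active in the cancer cells, in infiltrating immune cells or in both, and RNA of whole tumours does not tell these apart.

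The promoters of some members show these elements in their letters. RefSeq promoter sequences (GRCm38.p6, 250 bases before to 50 after each start) were found for 33 of the 42 members. The core of the ISRE was searched as GAAANNGAAA and, for the other strand, as TTTCNNTTTC. At least 1 match lay in 17 of the 33 promoters (51.5%), against 1079 of 27025 genes with a promoter (3.99%), and 8 of the 33 had more than 1 match, against 72 of all genes. The GAS was searched as TTCNNNGAA, which reads the same on either strand. It was matched in 7 of the 33 (21.2%), against 2582 of all genes (9.55%). Where matches overlap, each counts. A match is a run of letters and not a shown binding site, and a promoter without one may hold the element in another spelling or elsewhere. The promoters of 5 members are printed 5′ to 3′ with the ISRE core matches in capitals. Isg15, Oas1g and Ifit1 were highest in tumours with high levels of most members, and Oas1g and Ifit1 also split the tumours into separate sets. Rsad2 was also high in other tumours. Ifit3, read from 1 row, hardly varied, and its promoter has 2 matches. Whether that row reports the RNA of Ifit3 was not tested. Whether the letters of a promoter go with the levels of its gene was not tested.
Isg15 (chr4:156200769-156201068, minus strand): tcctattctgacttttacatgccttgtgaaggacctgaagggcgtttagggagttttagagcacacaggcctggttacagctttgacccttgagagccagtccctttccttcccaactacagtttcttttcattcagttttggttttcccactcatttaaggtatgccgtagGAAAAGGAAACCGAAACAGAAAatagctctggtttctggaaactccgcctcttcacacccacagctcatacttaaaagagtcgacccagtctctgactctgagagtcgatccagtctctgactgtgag
Oas1g (chr5:120887564-120887863, minus strand): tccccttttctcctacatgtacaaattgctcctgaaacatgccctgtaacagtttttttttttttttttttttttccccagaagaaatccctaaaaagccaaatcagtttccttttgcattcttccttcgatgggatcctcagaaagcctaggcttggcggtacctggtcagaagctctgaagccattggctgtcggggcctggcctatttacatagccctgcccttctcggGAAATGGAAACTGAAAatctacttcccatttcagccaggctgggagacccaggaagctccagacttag
Ifit1 (chr19:34640639-34640938, plus strand): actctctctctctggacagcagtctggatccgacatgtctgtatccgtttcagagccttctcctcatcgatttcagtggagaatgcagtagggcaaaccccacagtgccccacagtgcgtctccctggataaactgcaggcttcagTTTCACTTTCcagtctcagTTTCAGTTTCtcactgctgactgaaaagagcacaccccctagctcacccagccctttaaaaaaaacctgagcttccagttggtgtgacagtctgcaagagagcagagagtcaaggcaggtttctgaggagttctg
Rsad2 (chr12:26456403-26456702, minus strand): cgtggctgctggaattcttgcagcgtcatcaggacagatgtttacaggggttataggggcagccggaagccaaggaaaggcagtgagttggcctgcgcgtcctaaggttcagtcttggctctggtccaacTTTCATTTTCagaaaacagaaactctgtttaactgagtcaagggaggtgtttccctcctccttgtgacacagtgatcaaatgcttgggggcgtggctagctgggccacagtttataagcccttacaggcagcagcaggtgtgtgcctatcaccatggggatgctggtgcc
Ifit3 (chr19:34583279-34583578, plus strand): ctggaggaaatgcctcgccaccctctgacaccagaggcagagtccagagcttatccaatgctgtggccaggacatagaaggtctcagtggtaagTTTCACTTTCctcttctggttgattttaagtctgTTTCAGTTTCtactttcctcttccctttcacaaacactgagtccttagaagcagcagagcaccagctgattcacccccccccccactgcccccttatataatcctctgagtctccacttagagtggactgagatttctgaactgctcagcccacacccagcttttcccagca

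**Figure D1:**
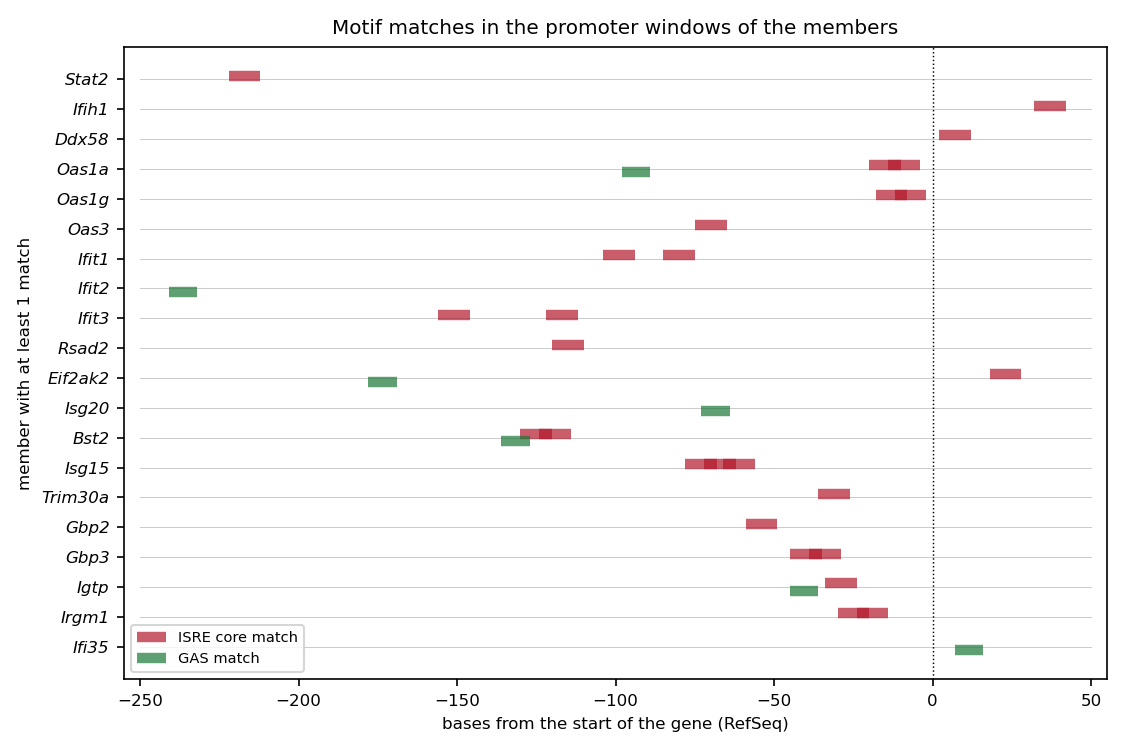
Positions of the ISRE core (red) and GAS (green) matches in the promoter windows of the members with a match, in bases from the RefSeq start of the gene. Of the 26 ISRE core matches, 23 lie before the start and 16 within the last 100 bases before it.

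Of the 26 ISRE core matches in members, 23 lay before the start of the gene and 16 within the last 100 bases before it. The 3 matches of Isg15, a small protein that is attached to other proteins, lay at bases -78 to -57, where the first base of the gene is 0. The 2 of Oas1g, an oligoadenylate synthetase gene, overlapped at -18 to -3, and Oas1a, its near copy, had the same pair at -20 to -5. In Ifih1, Ddx58 and Eif2ak2 the match lay after the start. The other promoters found, those of Irf7, Irf9, Oasl1, Oasl2, Ifit2, Cmpk2, Isg20, Samd9l, Herc6, Trim25, Dtx3l, Parp12, Ifi35, Ifi44, Xaf1 and Epsti1, had no ISRE core match in the window. Entries were not found for Dhx58, Zbp1, Oas2, Mx1, Mx2, Usp18, Parp9, Parp14 and Rtp4.

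Most members moved together between tumours. A member score was set as the mean, over the 38 genes, of each gene's log2 level minus its mean over the 27 tumours. It was 2.25 in P471, 1.30 in P219, 1.21 in P425, 1.20 in P966, 1.13 in P235, 0.98 in P1276, 0.95 in P268, 0.59 in P502 and 0.08 in P311. In the other 18 tumours it lay between -0.82 in P902 and -0.23 in P1469. A Gaussian mixture placed the tumours in an upper cluster of those 9 and a lower cluster of 18, with a BIC difference of 19.4 in favour of 2 components and an Ashman's D of 3.72, where D over 2 was taken as separate. High and low tumours therefore separated on the score, but the edge was not sharp: P311 lay 0.30 above P1469. With members scaled to an SD of 1, or with the 30 members whose mean is above the median of all rows, the mixture left P311 with the lower tumours and the upper cluster had 8. Leaving out any 1 of the 38 members gave the same 9 tumours. The clusters were made from the members' own levels, so the members' differences between them are given as a description, without a test.

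**Figure D2:**
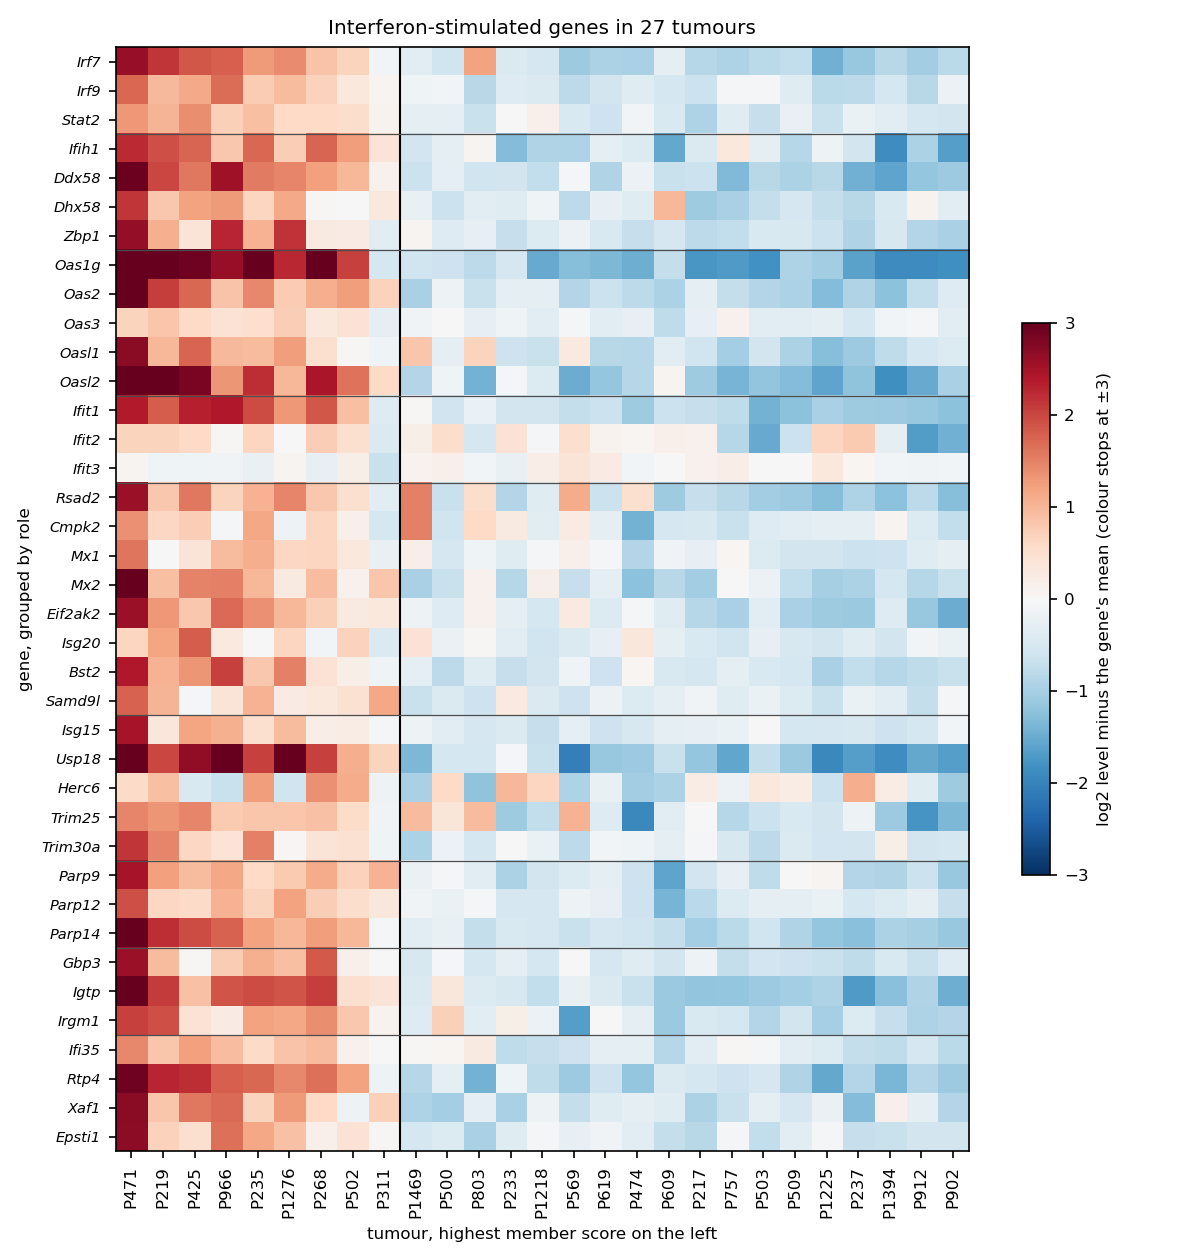
Log2 level of each of the 38 measured members (rows, grouped by role: transcription factors, sensors, OAS family, IFIT family, other antiviral effectors, ISG15 system and ubiquitin ligases, PARP family, GTPases, other induced genes) minus its mean over the 27 tumours (columns). Tumours run from the highest member score on the left, a line parts the 9 tumours of the upper cluster from the other 18, and P471 is the highest tumour for 28 of the 38 members.

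P471 had the highest level of 28 members, P425 of 3 (Stat2, Trim25 and Isg20), P966 of 2, and P219, P268, P1469, P237 and P569 of 1 each. The SD over the 27 tumours had a median of 0.94 log2 over the members, against 0.30 over all genes, and it exceeded 1 in 14 of 38 members, against 5.04% of all genes. For 12 of 38 members every one of the 9 upper tumours was above every one of the other 18, against 39 of 22180 genes (0.176%), and no gene had all 9 below the rest (0%). The 9 were chosen for high members, so nothing is read from that count. With P311 counted among the lower tumours, 19 of 38 members had the 8 above the other 19, against 84 genes (0.379%), and 19 genes had the 8 below (0.0857%). In P311 itself 11 members lay in the gap between the other 8 and the 18, 7 lay at or above the lowest of the 8, and 20 at or below the highest of the 18. Its levels were thus mixed, with Parp9 (7.94) and Xaf1 (7.52) among the upper tumours and Oas1g (4.70), Rtp4 (6.50) and Ifit1 (6.15) among the lower ones.

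Within the clusters the correlation of members with each other was higher in the upper than in the lower one. Pearson's r of a member with the mean of the others had a median of 0.81 over the 9 upper tumours (0.04 to 0.95) and of 0.33 over the 18 lower ones (-0.26 to 0.85). It exceeded 0.5 for 35 members in the upper and for 12 in the lower cluster. These are descriptions over tumours that share an array platform. The clusters were cut on the members' own mean, and the member score runs from 0.08 to 2.25 in the upper and from -0.82 to -0.23 in the lower one. A wider range by itself raises r, so no closer link between members is read from these values. P471 is far from the rest of the upper cluster, and the difference between the clusters was not tested. Parp14 had r of 0.85 in the lower cluster and Ifit1 0.81, whereas Xaf1 had -0.26 and Samd9l -0.15.

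Among the transcription factors, Irf9, the DNA-binding part of the complex that binds the ISRE, was at 8.44 to 10.06 log2 in the upper 9 tumours (median 9.29), against 7.51 to 8.29 in the other 18 (median 7.86). The sets did not overlap. Stat2, its partner, was at 8.07 to 9.37 in the upper 9 (median 8.68) and at 7.04 to 8.13 in the rest (median 7.56), so that only P311 fell among the lower tumours. Irf7, which amplifies interferon production, had a wider range, with 7.59 to 10.29 in the upper 9 (median 9.09), against 6.24 to 8.88 in the rest (median 6.85). Its 1 exception was P803, at 8.88, where the next highest of the 18 lower tumours was P609 at 7.38. Irf7 was also 1 of 7 members whose 27 levels fell into separate modes, the others being Ddx58, Zbp1, Oas1g, Ifit1, Parp14 and Rtp4. A gene counted as such where a mixture of 2 or more components had a BIC better by over 10, modes at least 1 log2 apart, a D over 4 and at least 3 tumours in each; this held for 4.74% of all genes. At a BIC difference over 6 and D over 2 it held for 12 members and 6.8% of all genes. The top mode held 9 tumours for Irf7, 8 for Ddx58, Oas1g, Ifit1, Parp14 and Rtp4, and 5 for Zbp1.

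Of the RNA sensors, Ddx58 and Ifih1 parted the tumours and Dhx58 did not. Ddx58 (RIG-I) was at 7.47 to 10.28 in the upper 9 tumours (median 8.90), against 5.75 to 7.32 in the rest (median 6.56). Ifih1 (MDA5) was at 7.85 to 9.71 (median 9.18), against 7.78 at most in the rest (median 6.90). In neither gene did the sets overlap, though P311 was only just above the highest lower tumour in Ifih1. Dhx58 (LGP2), a regulator of both, reached 9.14 in P471, but P268 and P502 were at 7.02 and 7.01, while P609 and P912, lower tumours, were at 7.98 and 7.09. Zbp1, a sensor of Z-form nucleic acid that can start necroptosis, was at 9.45 in P471, 9.10 in P966 and 8.97 in P1276. Those 3, with P219 at 7.89 and P235 at 7.85, made up its top mode, and its remaining values lay between 5.84 and 7.19.

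The OAS family makes oligoadenylates that activate an RNA-degrading enzyme, RNase L. Oas1g had the largest SD of all members (2.05 log2). It was at 9.68 in P471, 8.73 in P219, 8.29 in P235, 8.21 in P268, 8.15 in P425, 7.84 in P966, 7.48 in P1276 and 7.27 in P502. P311 was at 4.70, and the other 18 tumours lay between 3.34 and 4.72, below the median of all rows, where signal over background is not known, so no fold is given. The row is named Oas1g, but close copies of the gene lie beside it, and RNA of these can bind the same probes. Oas2 was at 6.62 to 9.05 in the upper 9 (median 7.19), against 4.63 to 5.77 in the rest (median 5.17), without overlap. Its neighbour on chromosome 5, Oas3, had an SD of 0.42 log2, with 5.73 to 6.83 in the upper 9 (median 6.51) and 5.24 to 6.13 in the rest (median 5.75). Of the OAS-like pair, also neighbours, Oasl2 was at 7.91 to 10.45 (median 9.52), against 5.47 to 7.40 in the rest (median 6.14). Oasl1 had 6.49 to 9.31 in the upper 9 (median 7.59), but P1469 and P803 of the lower tumours were at 7.43 and 7.28, above P268, P502 and P311.

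The IFIT genes, whose proteins bind viral RNA ends, split in 3 ways. Ifit1 was at 6.15 in P311 and at 7.45 to 8.94 in the other 8 upper tumours, against 5.11 to 6.56 in the rest (median 5.79). Ifit2 did not part the tumours: it was at 5.74 to 6.90 in the upper 9 (median 6.77), against 4.50 to 6.96 in the rest (median 6.24), with its highest level in P237 and its lowest in P912. Ifit3 was nearly flat, with an SD of 0.21, at 6.05 to 6.90 in the upper 9 (median 6.59) and 6.50 to 7.10 in the rest (median 6.76). Only P502 of the 9 upper tumours was among its 9 highest. Ifit3 was the member with the smallest SD and the only one whose median was not higher in the upper tumours. It has 1 row, and whether this row reports the gene's RNA was not tested. Ifit2 and Ifit3 are neighbours on chromosome 19, and Ifit3b, a near copy of Ifit3 with a row of its own that was looked at after the values of Ifit3 were seen, was at 2.73 to 3.84 in the upper 9 and 2.86 to 4.44 in the rest.

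**Figure D3:**
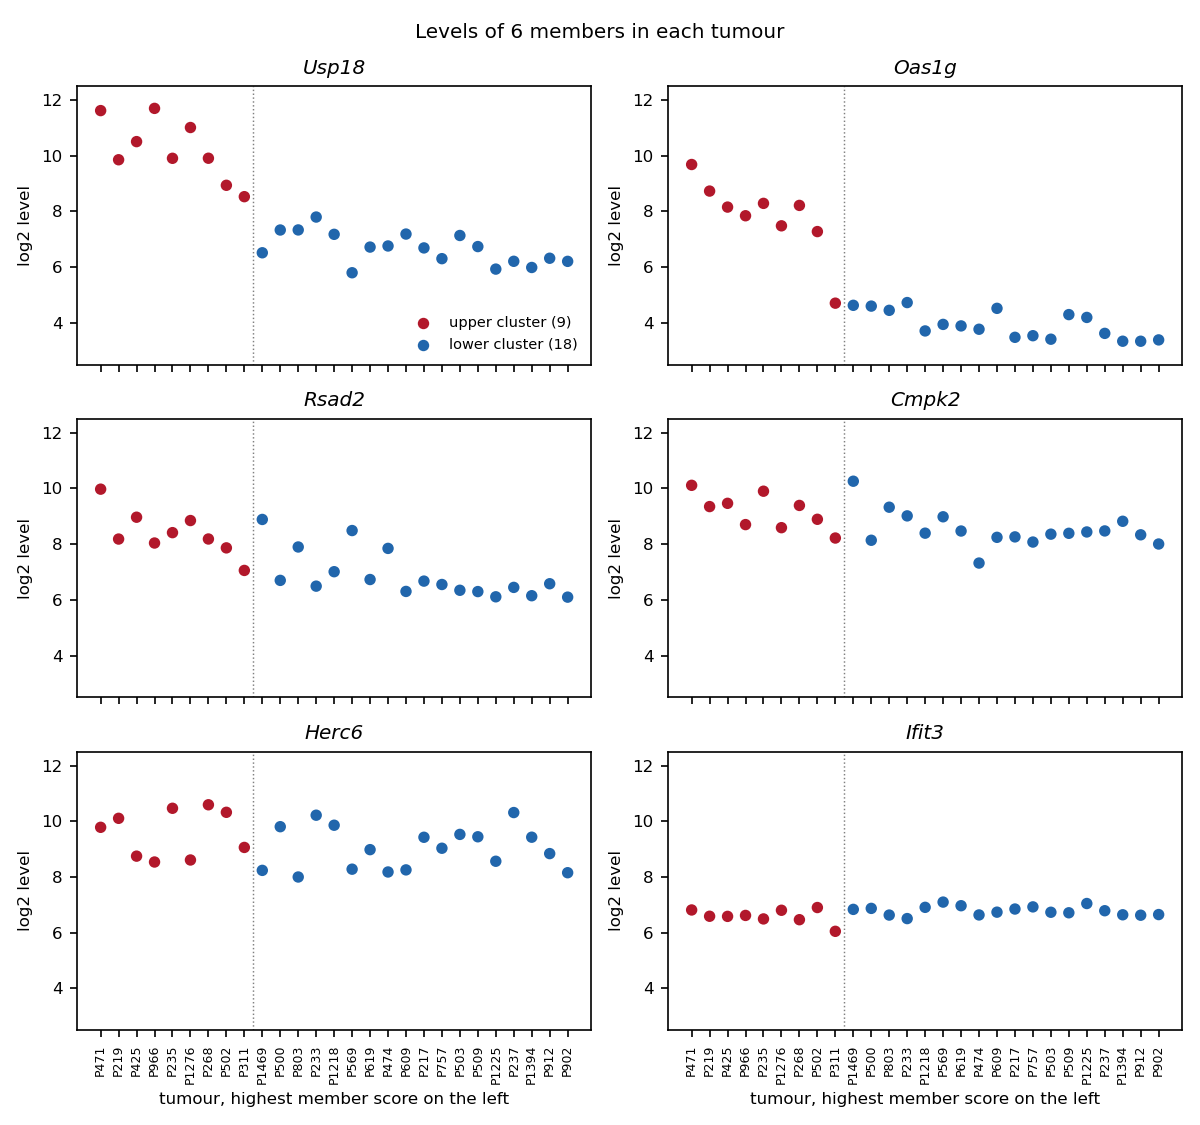
Log2 level of 6 members in each of the 27 tumours, ordered by member score with the highest on the left. Upper-cluster tumours are red and lower-cluster tumours blue. Usp18 and, apart from P311, Oas1g part the tumours. Rsad2 and Cmpk2 are also high in P1469, Herc6 follows another order, and Ifit3 lies between 6.05 and 7.10 throughout.

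Among the other antiviral effectors Rsad2 (viperin) and Cmpk2, a mitochondrial nucleotide kinase, are neighbours on chromosome 12. Rsad2 was at 7.06 to 9.97 in the upper 9 tumours (median 8.18), against 6.10 to 8.89 in the rest (median 6.56). The lower tumours P1469 (8.89), P569 (8.49), P803 (7.90) and P474 (7.85) overlapped the upper ones. Cmpk2 had its highest level of all in P1469 (10.26) and was at 9.33 in P803, against 8.22 to 10.11 in the upper 9. P474 had the lowest Cmpk2 (7.32), so the neighbours did not move together there. Their r was 0.71 over the upper 9 (rho 0.70) and 0.52 over the lower 18 (rho 0.29), and it was 0.13 and -0.05 without the 2 tumours farthest from the median of Rsad2 in each cluster, so it rested on those tumours. Mx2 was at 9.03 in P471 and at 5.06 to 6.43 in the other upper tumours, against 3.70 to 5.09 in the rest. Mx1 was at 4.09 to 5.92 in the upper 9 (median 4.94), against 3.42 to 4.50 in the rest (median 3.98). The RefSeq table of the C57BL/6J assembly lists Mx1 and Mx2 as transcribed pseudogenes, and which allele each tumour carried is not known. Eif2ak2 (PKR), which halts translation on sensing RNA, was at 6.74 to 9.07 in the upper 9 (median 7.48), against 4.97 to 6.77 in the rest (median 6.07). Bst2 (tetherin), which holds virus particles at the cell surface, was at 5.69 to 8.23 (median 6.87), against 4.87 to 5.89 (median 5.29). The overlaps were small: P569 (6.77) exceeded P502 in Eif2ak2, and P474 (5.89) and P569 (5.71) exceeded P311 in Bst2. Isg20, an RNA exonuclease, was highest in P425 (8.49) and P219 (7.84), and P1469 (7.11) and P474 (7.01) exceeded 4 of the 9 upper tumours. Samd9l, an antiviral and growth-restraining gene, was highest in P471 (6.16) and P311 (5.55) and low in P425 (4.34).

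In the ISG15 system, Isg15 itself was at 7.29 in P471 and at 4.76 to 6.01 in the other upper tumours, against 4.14 to 4.82 in the rest (median 4.37). Only P503 of the lower tumours, at 4.82, exceeded P311. Usp18, the protease that removes ISG15 and dampens the interferon receptor, had the second largest SD (1.87). It was at 11.70 in P966, 11.62 in P471, 11.01 in P1276, 10.50 in P425 and 8.53 to 9.91 in the other 5 upper tumours, against 5.79 in P569 to 7.79 in P233 among the rest. The 4 tumours highest in Usp18 were also the 4 lowest in the neuroendocrine score (-3.32 to -1.83). Herc6, the mouse ligase for ISG15, ran another way. It was at 8.53 to 10.59 in the upper 9 (median 9.78), against 7.997 to 10.31 in the rest. Its levels were low in P966 (8.53), P1276 (8.61) and P425 (8.75) and high in P268 (10.59), P235 (10.46) and P502 (10.32), with P237 and P233 of the lower tumours at 10.31 and 10.22. Over the upper 9, Herc6 had the lowest r of any member with the others (0.04). Trim25, the ligase that activates RIG-I, was at 7.06 to 8.62 in the upper 9, highest in P425. In the rest its median was 6.65, but P569 (8.20), P1469 (8.12), P803 (8.10), P500 (7.51) and P217 (7.15) exceeded P311. Trim30a, an inhibitor of Toll-like receptor signalling, was at 4.98 to 7.26 in the upper 9 (median 5.56) and 4.15 to 5.29 in the rest (median 4.65).

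All 3 PARP genes, which encode ADP-ribosyl transferases or relatives of them, parted the 9 upper tumours from the rest without overlap. Parp14 was at 6.76 to 10.05 (median 8.06), against 5.55 to 6.60 in the rest (median 6.09). Parp9 was at 7.503 to 9.37 (median 7.94), against 5.32 to 6.997 (median 6.35), and Parp12 at 9.20 to 10.79 (median 9.52), against 7.46 to 8.82 (median 8.51). The GTPases Igtp (Irgm3) and Gbp3, which act on vacuoles that hold microbes, also showed no overlap. In both, however, P311 was only just above the highest lower tumour. Igtp was at 6.38 to 9.21 in the upper 9 (median 7.90), against 4.31 to 6.34 in the rest (median 5.09), and Gbp3 at 4.71 to 7.28 (median 5.58), against 3.94 to 4.67 (median 4.18). The lower tumours' levels of Gbp3 were all under the median of all rows, where signal over background is not known. Irgm1 overlapped, with 5.10 to 7.06 in the upper 9 (median 6.15) and 5.73 in P500 among the rest. Of the remaining induced genes, Rtp4, a chaperone of membrane receptors, was at 6.50 in P311 and 7.87 to 9.58 in the other 8, against 5.12 to 6.53 in the rest. Epsti1 was at 6.08 to 8.72 (median 6.75), against 5.08 to 6.01 in the rest (median 5.58), with no overlap. Xaf1, a pro-apoptotic gene, and Ifi35 overlapped by a few tumours, with Xaf1 at 6.95 in P1394 and 6.66 in P502, and Ifi35 at 8.43 in P803 and 8.15 in P311.

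Among the 18 lower tumours P1469 had the highest level of 7 members, P569 of 5 and P803 of 3, and 10 other lower tumours had the highest of between 1 and 4 members each. P1469, P803 and P569 had member scores of -0.23, -0.29 and -0.43. They were the only lower tumours with Cdh1 (E-cadherin) above 10 log2 (10.58, 10.46 and 10.51), a level found in 5 upper tumours, P425 (11.51), P1276 (11.31), P966 (10.94), P219 (10.65) and P471 (10.54). Their Chga, a neuroendocrine marker, was at 11.33, 11.55 and 10.89, whereas the upper tumours P471, P425, P966, P1276 and P219 had 5.91, 7.31, 7.19, 7.57 and 8.70. In the other upper tumours, P235, P268, P502 and P311, Chga was at 9.69, 10.47, 10.40 and 10.28. Against the mean of the other members, each centred on its own mean over the tumours, P1469 stood higher by 1.80 log2 in Cmpk2, 1.79 in Rsad2, 1.22 in Trim25 and 1.08 in Oasl1. P803 did so by 1.54 in Irf7 and 1.26 in Trim25, and P569 by 1.58 in Rsad2 and 1.51 in Trim25. The same 3 were low in other members: the difference was -1.67 for Usp18 and -1.27 for Irgm1 in P569, and -1.16 for Rtp4 and -1.15 for Oasl2 in P803. The tumours were singled out after their values were seen, and the part of epithelial content was not tested. Krt8, a keratin of luminal prostate epithelium, was at 7.30 to 11.72 in the upper 9 tumours (median 10.48), against 6.57 to 11.71 in the rest (median 7.28). The luminal epithelium score, from 5 markers, had a median of 1.10 in the upper 9 and -0.83 in the rest, and 3 of the 9 were above all 18. The epithelial markers of the labelled tissue thus had higher medians in the upper cluster, but were at very unequal levels within both clusters.

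Next, marker lists of immune cells were set beside the members, since T and NK cells secrete interferon gamma and macrophages respond to it. The T and NK cell score, from 9 markers, was -0.17 to 1.40 in the upper 9 tumours (median 0.16), against -0.44 to 0.25 in the rest (median -0.20), and 4 of the 9 were above all 18. The macrophage score, from 12 markers, was 0.00 to 1.08 (median 0.34), against -1.33 to 0.33 (median -0.27), and 5 of the 9 were above all 18. None of the 21 markers parted the clusters without overlap. Cd3g, a T cell receptor chain, was at 8.64 in P471, 7.16 in P219, 6.69 in P235, 6.34 in P268, 5.91 in P502, 5.65 in P966 and 5.50 in P425. It was at 4.77 in P311 and 4.41 in P1276, against 4.19 to 5.49 in the other 18. Gzma, the granzyme with the largest SD of the T and NK list (1.25), followed another order, with 7.40 in P471, 6.52 in P1276 and 6.05 in P966, but also 6.59 in P1469, 5.39 in P569 and 4.93 in P803. In a T and NK cell score without Gzma, set after the values were seen, the highest lower tumour was P912 at 0.004. P235 (0.20), P502 (0.20) and P268 (0.15) were then also above all 18, whereas P1276 (-0.14) and P311 (-0.16) were not. Prf1, another marker of the list, had a median of 6.33 in the upper 9 and 6.71 in the rest. The B and plasma cell score was 2.69 in P471 and 1.78 in P966, and at most 0.47 in the other upper tumours, against -0.60 to 0.80 in the rest. Medians of the scores for plasmacytoid dendritic cells (0.10 and -0.10), dendritic cells (0.08 and -0.06) and neutrophils (0.09 and -0.13) are given for the upper 9 and then the rest, and 3, 2 and 4 of the 9 were above all 18. The markers of the plasmacytoid list were not of 1 direction. In the same order, medians were 11.01 and 11.29 for Tcf4 and 3.77 and 3.91 for Ccr9. They were 5.22 and 5.01 for Siglech and 6.77 and 6.21 for Ly6d. The part of these cells in the members' levels was not tested. Fewer cells of a type and less RNA per cell cannot be told apart in such bulk samples.

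**Figure D4:**
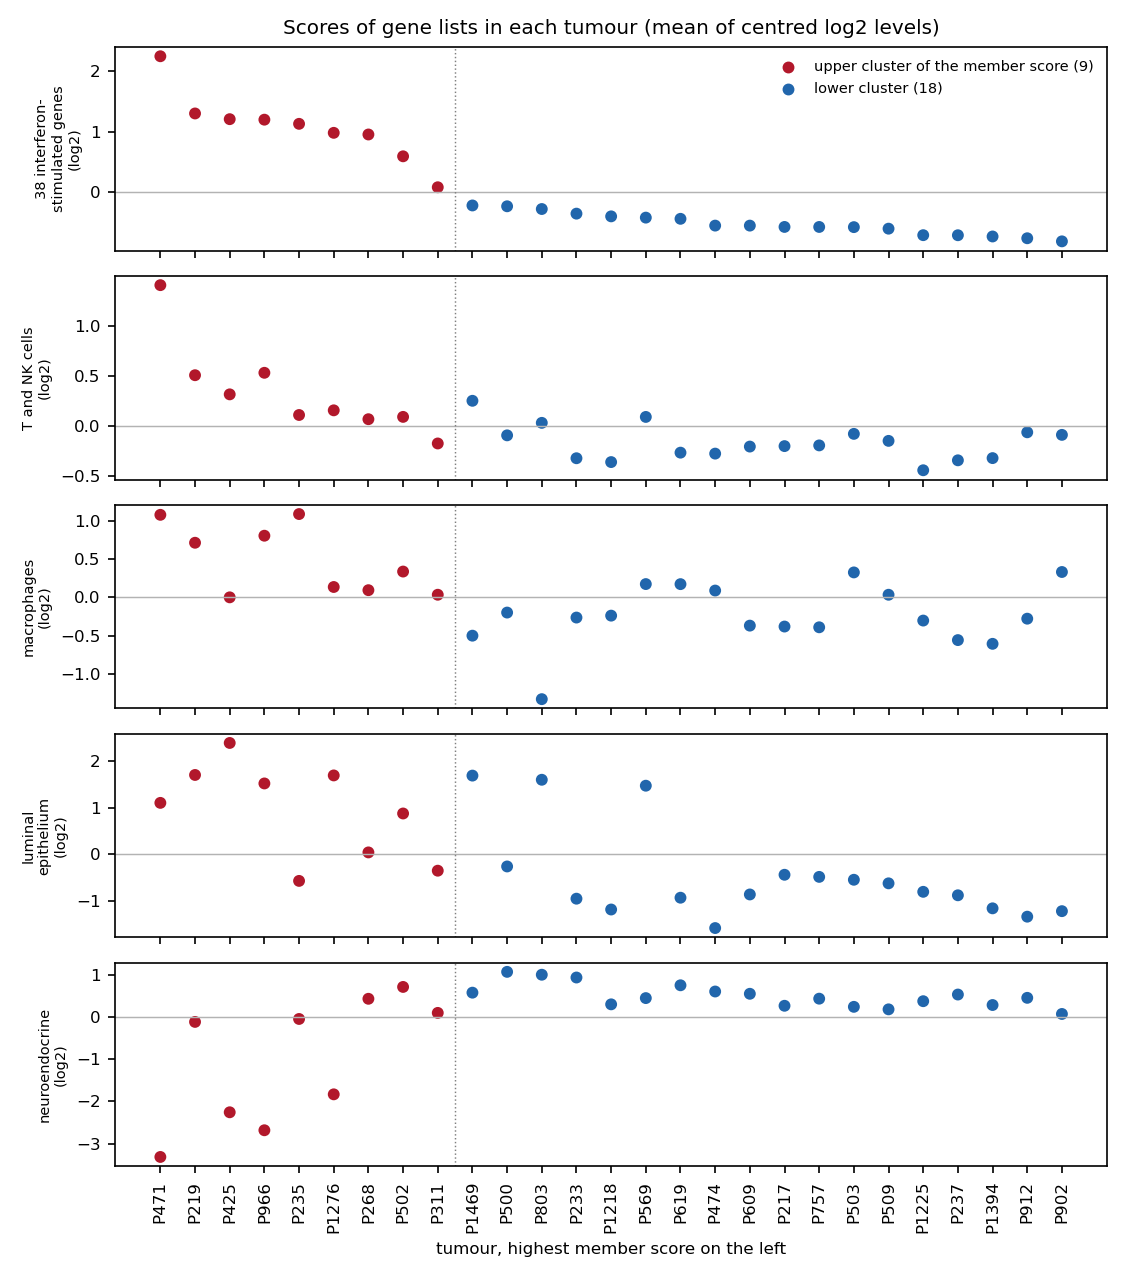
Scores of 5 gene lists in each tumour (mean of the log2 levels of the list's genes, each minus its mean over the 27 tumours), with tumours in order of the member score, highest on the left. The 4 tumours with neuroendocrine scores of -1.83 or below are all in the upper cluster, and P1469, P803 and P569 are the lower tumours with high luminal epithelium scores.

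Fitted over all 27 tumours, 35 of 38 members rose with the T and NK cell score and 0 fell (limma, Benjamini-Hochberg adjusted over 22171 genes at 0.05), against 11.8% of all genes higher and 9.73% lower; the counts were also 35 and 0 at an unadjusted p under 0.05. Slopes are in log2 per SD of the score. The steepest were Oas1g (1.60 ± 0.24, SE, adjusted p = 3.51e-05), Usp18 (1.38 ± 0.24, adjusted p = 0.000128) and Oasl2 (1.14 ± 0.22, adjusted p = 0.00039). The smallest adjusted p-values were those of Oasl1 (0.89 ± 0.08, adjusted p = 2.06e-07) and Isg15 (0.64 ± 0.06, adjusted p = 2.57e-07). The 3 that did not pass were Ifit2 (0.17 ± 0.13, adjusted p = 0.426), Herc6 (0.05 ± 0.15, adjusted p = 0.887) and Ifit3 (-0.01 ± 0.05, adjusted p = 0.904). The median slope was 0.70 over the members and near 0 over all genes. With the macrophage score as a covariate 32 members passed, against 9.7% of all genes higher and 7.79% lower. P471 and P966, highest in the T and NK cell score (1.40 and 0.53), had the lowest neuroendocrine scores (-3.32 and -2.68). P219, next at 0.51, had -0.12. Neither the neuroendocrine nor the luminal epithelium score was a covariate in any fit. The part of T and NK cells thus cannot be told apart from these differences between tumours.

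Inside the lower cluster few members followed the score, but these 18 tumours were chosen for their low member levels. That choice narrows the range of the members and flattens their slopes, so no conclusion is drawn from fits within the lower cluster. Within the 18 lower tumours 2 members rose with the T and NK cell score, Rsad2 (0.56 ± 0.14, adjusted p = 0.0142) and Oasl1 (0.50 ± 0.07, adjusted p = 0.00081), and 1 fell, Trim30a (-0.20 ± 0.06, adjusted p = 0.0258). The background there was 8.58% of genes higher and 7.02% lower, so the members' share was not above it. Oas1g, Usp18 and Oasl2 had slopes of 0.11, -0.02 and -0.04 in these tumours. The 3 lower tumours with high Gzma were P1469, P569 and P803, and a score without Gzma was therefore tried after the values were seen. Over all tumours it gave the same count of 35 members higher, against 9.05% of genes higher and 6.3% lower. Within the lower tumours it gave 0 of 38 members, against 0% of genes higher and 0.00902% lower, by limma, and 2 members higher and 2 lower at an unadjusted p under 0.05. The upper cluster, with 9 tumours of which P471 is far from the rest, was not fitted by itself.

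On the macrophage score 28 of 38 members rose and 0 fell over the 27 tumours (limma, adjusted over 22168 genes), against 3.15% of all genes higher and 1.04% lower; 33 members were higher and 0 lower at an unadjusted p under 0.05. Oas1g (1.34 ± 0.29, adjusted p = 0.00653), Usp18 (1.18 ± 0.27, adjusted p = 0.0104) and Oasl2 (1.07 ± 0.23, adjusted p = 0.00606) were again the steepest, and Epsti1 had the smallest adjusted p (0.65 ± 0.10, adjusted p = 0.000127). Irf7, Rsad2, Oasl1, Cmpk2, Trim25, Isg20, Ifi35, Ifit2, Ifit3 and Herc6 did not pass. Rsad2, Oasl1, Irf7 and Trim25 passed on the T and NK cell score and had slopes of 0.48, 0.47, 0.60 and 0.30 here. The difference between the slopes on the 2 scores was not tested. Without P471, 12 members passed, against 1.38% of all genes higher and 0.149% lower. With the T and NK cell score as a covariate only Epsti1 did (0.39 ± 0.10, limma, adjusted p = 0.0359), against 0.753% of all genes higher and 0.555% lower. Within the 18 lower tumours 0 of 38 members passed by limma, against 0.0722% of genes higher and 0.0316% lower, and at an unadjusted p under 0.05 there were 0 higher and 3 lower. Those tumours were chosen for low members, so nothing is read from these counts.

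**Figure D5:**
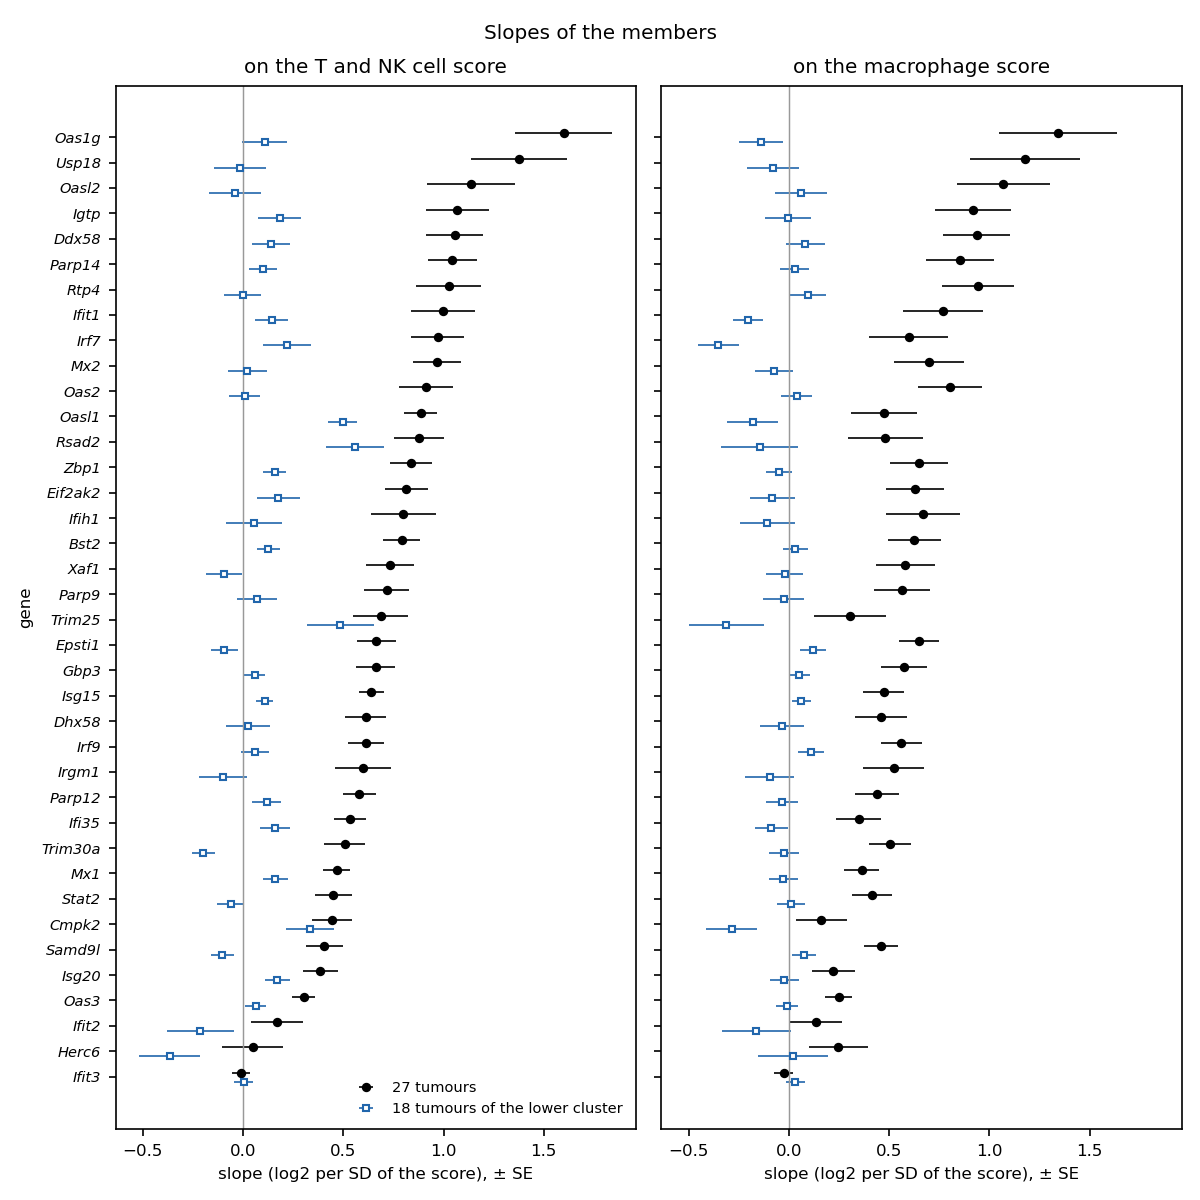
Slope ± SE of each of the 38 members on the T and NK cell score (left) and on the macrophage score (right), in log2 per SD of the score, over all 27 tumours (black) and over the 18 tumours of the lower cluster (blue). Slopes reach 1.60 for Oas1g over all tumours and lie mostly around 0 within the lower cluster, where Rsad2 (0.56) and Oasl1 (0.50) are highest on the T and NK cell score. The lower cluster was chosen for low members, which narrows their range and flattens the slopes.

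The interferon genes themselves varied little. The 18 measured ones had a median SD of 0.24 (0.14 to 0.43), and none parted the clusters. Ifng was at 4.66 to 4.96 log2 in the upper 9 tumours and 4.47 to 5.02 in the rest, and Ifnb1 at 3.20 to 3.73 and 3.36 to 4.07, all below the median of all rows. Ifna14 was at 6.94 to 8.79 in the upper 9, highest in P425, and at 6.81 to 7.59 in the rest. Of the 18, only Ifne passed on the T and NK cell score (0.10 ± 0.03, limma, adjusted p = 0.0369), and 0 passed on the macrophage score. Of all genes 11.8% and 3.15% were higher on these scores. At an unadjusted p under 0.05, 2 of the 18 were higher on the T and NK cell score and 0 on the macrophage score.

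The receptor and kinase score was 0.06 to 0.84 in the upper 9 tumours, against -0.45 to 0.04 in the rest. Of its 9 genes 6 rose with the T and NK cell score and 2 with the macrophage score, and none fell. Of all genes 11.8% and 3.15% rose with these scores. Ifngr2, a chain of the interferon gamma receptor, was at 8.69 to 9.56 in the upper 9 tumours, against 7.54 to 8.55 in the rest. Ifnar2, a chain of the type I receptor, was at 8.22 to 9.36 (median 8.95), against 7.41 to 8.57 (median 7.75), while Ifnar1 was at 8.85 to 9.72 and 8.83 to 9.42. Ifnlr1, the receptor for interferon lambda, which epithelia carry, was at 5.25 to 7.93 (median 6.64), against 4.89 to 6.97 (median 5.22). In the sensor list 11 of 14 genes rose with the T and NK cell score and 7 with the macrophage score, against the same shares of all genes. Tlr3, a sensor of viral RNA in endosomes, was at 6.02 to 8.99 in the upper 9 (median 7.33), against 4.91 to 5.54 in the rest (median 5.21), without overlap. Sting1, which relays DNA sensing, was at 7.95 to 10.37 (median 8.81), against 6.26 to 8.93 (median 7.71). Aim2, a DNA sensor of the inflammasome, was highest in the lower tumour P1394, with 5.51 to 7.77 in the upper 9 (median 7.04), against 4.85 to 9.56 in the rest (median 7.66), and its slope on the T and NK cell score was -0.53 ± 0.20 (limma, adjusted p = 0.0522).

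Of 13 genes known mainly as targets of interferon gamma, 10 rose with the T and NK cell score and 6 with the macrophage score, and their SD had a median of 0.56. For these and for the lists that follow, the shares of all genes that rose were 11.8% on the T and NK cell score and 3.15% on the macrophage score. Cxcl9 and Cxcl10, chemokines that draw T cells, peaked at 7.53 in P471 and at 6.49 in P219, and Ciita, the switch of class II genes, covered only 5.85 to 6.83. Cd274 (PD-L1) was highest in P500, a lower tumour, at 8.64. Of 25 further interferon-induced genes 22 rose with the T and NK cell score and 14 with the macrophage score. Ifitm3 was at 8.89 to 11.41 in the upper 9, against 6.40 to 8.42, and Nmi at 6.25 to 7.92, against 5.01 to 6.19, both without overlap. Ifitm1, of the same family, had another order, with 9.29 in P425, 7.24 in P471 and 6.19 in the lower tumour P569. All 9 class I antigen presentation genes rose with the T and NK cell score and 7 with the macrophage score; Nlrc5, their activator, was at 5.69 to 8.13 in the upper 9 (median 6.89), against 5.16 to 5.76 in the rest (median 5.42).

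Genes outside the list were ranked by the smaller of r with the member score in the upper 9 and in the lower 18 tumours. The 12 that followed the score most closely within the clusters were Irgm2, Rnf213, B2m, Mctp2, Casp8, Spats2l, Mast4, S1pr2, Cast, Uaca, Mlkl and Crybg1. Differences between the clusters play no part in this ranking. Irgm2, a GTPase, had r of 0.90 and 0.86 (rho 0.85 and 0.80), and lay at 6.42 to 9.20 log2 in the upper 9, against 4.996 to 6.45 in the rest. Rnf213 had r of 0.96 and 0.85 (rho 0.87 and 0.88), with 8.004 to 10.50 in the upper 9, against 6.37 to 7.77 in the rest, without overlap. B2m, the light chain of class I molecules, had r of 0.74 and 0.73 (rho 0.83 and 0.72). Mctp2 and Crybg1 were highest in a lower tumour (9.21 and 9.65), against at most 7.65 and 9.63 in the upper 9. Their medians were higher in the upper 9 (6.02 and 8.78) than in the rest (4.04 and 4.96). Spats2l had medians of 6.52 in the upper 9 and 6.51 in the rest. For Mlkl r over the upper 9 was 0.12 without the 2 tumours farthest from the median, for S1pr2 to 0.26 and for Spats2l to 0.33, against 0.84 for Irgm2 and 0.82 for Rnf213. These values describe 9 and 18 tumours, and Irgm2 shares close copies in its family with Irgm1 and Igtp.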

How the data were processed

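Total RNA of 27 tumours was measured on 1 array each. The deposited table gives the authors' log2 values in 41345 rows, from 1.68 to 14.5. Arrays have no read depth; the number of arrays limits the precision. Partek was used, per the submitters' processing notes; how background and arrays were adjusted is not stated in the material used. Of the rows, 23521 had 1 gene symbol in the platform's annotation, 1814 had several and 16010 are unnamed here; the last 2 kinds were not used, which left 22180 genes.

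Members and lists were chosen with earlier results of these data known. Members, the 12 most alike genes (symbols that are only clone or model numbers left out) and every measured gene of the other lists could be named. Clusters and modes came from mclust 6.1.1. Genes were fitted on marker scores scaled to SD 1 with limma 3.58.1 (lmFit, eBayes with trend) in R 4.3.3, with the markers left out and p adjusted by Benjamini-Hochberg. Each tumour carries the number of a separate animal, so p measures the spread between animals. The fits and the mixture used for the member score were tried on simulated data, with noise independent between genes in the fits. The modes of single genes and the ranking of like genes were not tried in this way. Alternatives were other scalings, row rules, filters, covariates and leaving out each tumour. Promoters and gene order came from RefSeq tables.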

Additional observations from a re-analysis of the deposited data

How the results depend on the processing

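No paired analysis was possible because all tumours form 1 group. The member score kept 2 clusters under quantile normalization, array centring, the mean of all rows and each tumour left out (upper cluster of 7 to 9 tumours, 7 without P471), and had 8 with members scaled or low members left out. With a BIC difference over 6 and D over 2, 12 members had separate modes in place of 7, and with P311 among the lower tumours 19 in place of 12 parted the sets. Within the lower cluster 3 members passed on the T and NK cell score, and without Gzma 0 of them and 2 of all genes; on the macrophage score 0 members and 23 genes passed. There the slopes on the T and NK cell score turned to -0.0159 for Usp18 and -0.0414 for Oasl2. On the macrophage score they turned to -0.138 for Oas1g and -0.0783 for Usp18. Fewer tumours enter these fits, and they were chosen for low members, which flattens the members' slopes. With the T and NK cell score as a covariate 1 member and 290 genes passed on the macrophage score. With 1 tumour left out, 34 to 35 members and 3801 to 5612 genes passed on the T and NK cell score, and 12 to 32 members and 339 to 1303 genes on the macrophage score. Leaving out P471 gave the lowest on the macrophage score and 34 members on the other, and without P966 3801 and 563 genes passed. Among the refitted slopes of the members named, 10 on the T and NK cell score and 12 on the macrophage score no longer passed, those that turned among them. By Spearman, 7 of the 12 most alike genes were the same. The causes were not tested. For 25 of 38 members the lowest level was under the median of all rows, where signal over background is not known.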

Other observations

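Of the 5 B and plasma cell markers, 4 were highest in P471, where Jchain was at 10.29 log2, Cd79b at 8.19, Mzb1 at 7.62 and Ms4a1 at 7.29. Cd79a was highest in P966 (7.41), which was also high in Cd79b (7.79) and Ms4a1 (5.78). P1276 and P425, also with low neuroendocrine scores, had Ms4a1 at 3.78 and 4.02, against 3.74 to 4.81 in the 18 lower tumours. Their part in the levels of the members was not tested. Ly6g, a neutrophil surface marker that lies in a family of like genes, was highest in P471 (7.54), whereas S100a8 and S100a9 covered only 2.87 to 3.67 and 4.37 to 5.05 log2 over all tumours. Ifi204, a DNA-binding sensor of myeloid cells, was at 7.47 in P235 and 7.42 in P471, and its slope on the macrophage score was 1.07 ± 0.17 (limma, adjusted p = 0.000225).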
